A study of Bos taurus with 56 samples.

Results

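ABCA1, ABCG1, APOE and SCARB1, which move cholesterol out of cells or handle it in lipoproteins, the caveolar protein gene CAV1 and the liver X receptor genes NR1H2 and NR1H3 were followed in the epithelium of the bovine oviduct. These 7 genes were picked by symbol from the 31903 genes of the table, and each symbol was found once. All 7 passed the filter on low counts in every comparison.

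A cell cannot break down cholesterol and sheds the surplus to particles outside it. ABCA1 is the transporter that loads cholesterol and phospholipid onto lipid-poor apolipoprotein A-I, and ABCG1 is the transporter that adds cholesterol to high-density lipoproteins. Apolipoprotein E, encoded by APOE, carries lipid out of cells. SCARB1 is the receptor of high-density lipoproteins and can move cholesterol in both directions, while CAV1 builds caveolae, the cholesterol-rich pits of the plasma membrane. NR1H2 and NR1H3 encode the liver X receptors beta and alpha, nuclear receptors that bind oxysterols and switch on ABCA1, ABCG1 and APOE. In the oviduct the isthmus stores sperm and the ampulla is the place of fertilization, and loss of cholesterol from the sperm membrane is a step of capacitation.

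All animals were Holstein and cyclic, were not inseminated, and were slaughtered on Day 3 after a synchronized estrus, with the corpus luteum (CL) of that cycle on 1 ovary. The metabolic groups were nulliparous heifers (n = 5), post-partum non-lactating cows that were never milked after calving (n = 5) and post-partum lactating cows (n = 4), the cows being at about 60 days post-partum. Every animal had gone through the same hormonal program of progesterone, prostaglandin and GnRH analogue. Epithelial cells were scraped from both regions of each oviduct, the one beside the CL being ipsilateral and the other contralateral, and the 56 libraries of 14 animals form 12 conditions. Heifers differed from both cow groups in parity as well as in metabolism, and parity and metabolism cannot be told apart in those comparisons. Within a group the animals are called A to E.

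The libraries held 1901454 to 6836850 counts on genes (median 4931502.5). Levels are given as CPM, the counts scaled to the library total after TMM scaling, which compare the same gene between libraries but not genes of different length. In the ipsilateral ampulla 4 libraries are in doubt, as they did not resemble the other libraries of the animal they are numbered for. The library of heifer B and the library of non-lactating cow B each correlated best with the other's animal (r = 0.863 and 0.821 over 200 animal-specific genes, against 0.26 with their own). Another library, named non-lactating, is numbered as lactating cow B but resembled non-lactating cow C (r = 0.853), and one named lactating is numbered as non-lactating cow C but resembled lactating cow B (r = 0.882). All were kept in the group that names them, those numbered for another group standing last in each list, and ampulla results over all groups are also given without them. The scraped material carried the marks of oviduct epithelium: summed ciliated markers lay between 4299 and 9413 CPM and summed secretory markers between 1245 and 38791 CPM, while the 5 red blood cell genes together did not exceed 0.907 CPM. In such bulk samples fewer cells of a type and less RNA per cell cannot be told apart.

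**Figure D1:**
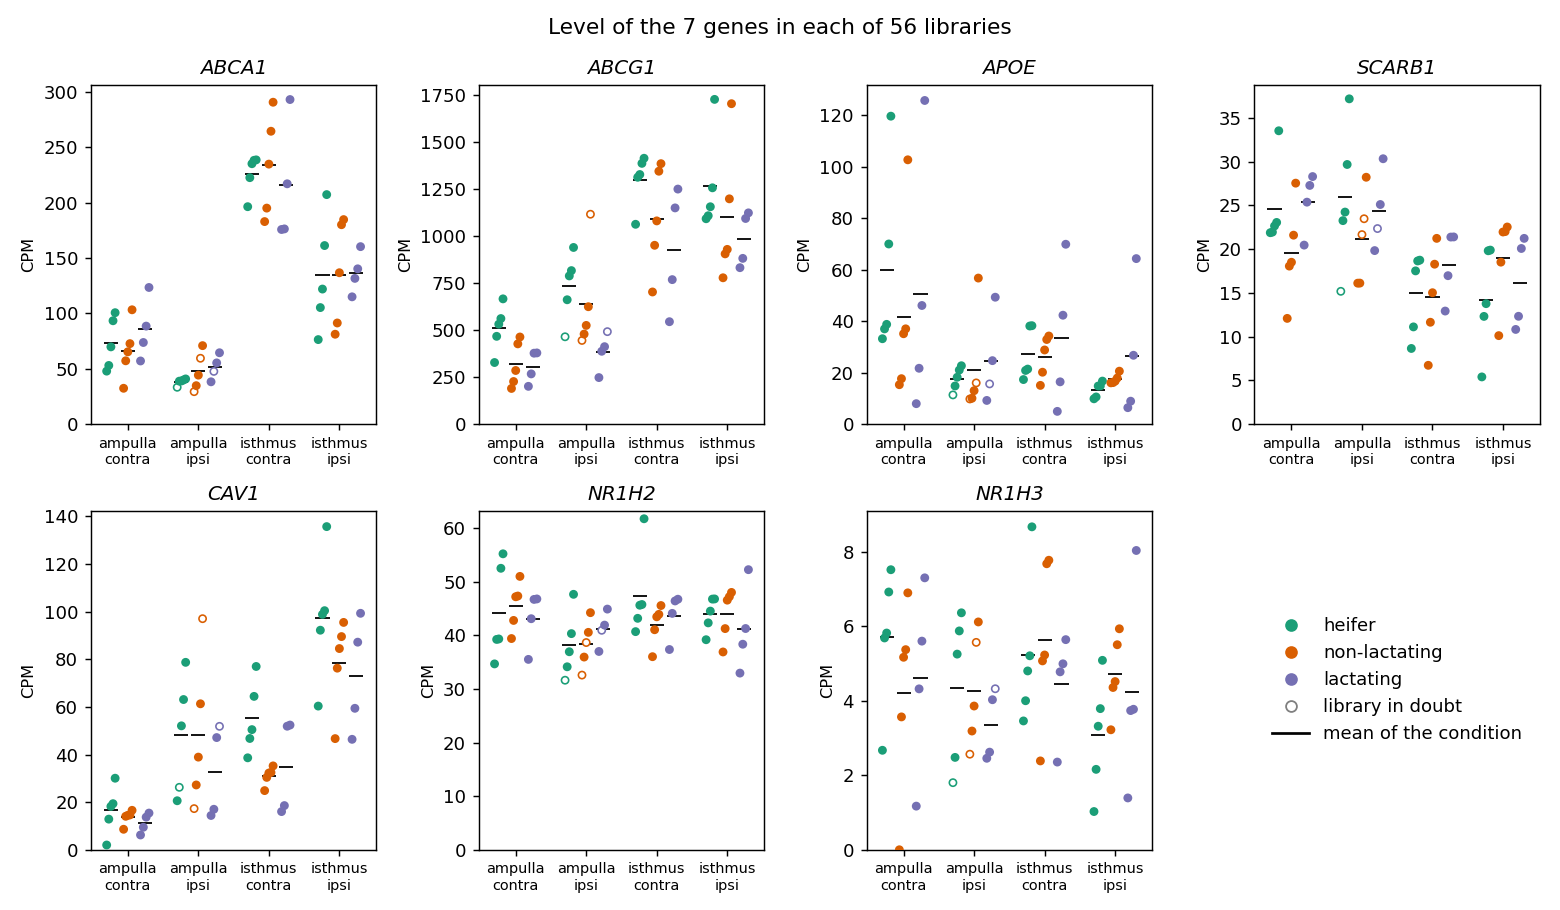
CPM (vertical axes, linear, from 0) of the 7 genes in the 56 libraries by region and side relative to the CL, with a point for each library, coloured by metabolic group, a black line at each condition mean and open points for the 4 libraries in doubt. The isthmus means of ABCA1 lay above its ampulla means, and its ipsilateral means below the contralateral ones, CAV1 lay higher in the isthmus and on the ipsilateral side, and NR1H2 stayed within 31.6 to 61.8 CPM throughout.

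The members differed in how much they varied. NR1H2 was the steadiest, with 31.6 to 61.8 CPM (median 42.95) over the 56 libraries. CAV1 ran from 2.002 to 136 CPM with a median of 38.8, its lowest value coming from 1 library, the contralateral ampulla of heifer E. ABCA1 ran from 29.2 to 293 CPM (median 96.9), ABCG1 from 189 to 1727 CPM (median 783), APOE from 4.92 to 126 CPM (median 20.3) and SCARB1 from 5.39 to 37.2 CPM (median 20.3). NR1H3 was scarce, with a median of 23 counts a library and at most 8.66 CPM. It had no count in the contralateral ampulla of non-lactating cow A, whose depth allows a level of up to 0.955 CPM (3 counts, counting error only).

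Both regions were compared on each side with the metabolic group as a covariate. ABCA1, ABCG1 and CAV1 rose in the isthmus on both sides, whereas SCARB1 fell there on both sides. Thus 4 of the 7 genes were called at an adjusted p under 0.05 on each side, 3 higher and 1 lower. Of all genes tested, 50.3% were called on the ipsilateral side (24.5% higher and 25.8% lower) and 43.5% on the contralateral side (21.5% higher and 22% lower), so a count of 4 in 7 is close to the background.

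The lowest, median and highest levels of ABCA1 in the contralateral libraries were 32.3, 71.1 and 123 CPM in the ampulla and 176, 229 and 293 CPM in the isthmus (n = 14 each). On the ipsilateral side they were 29.2, 40.2 and 70.8 CPM and 76.2, 134 and 207 CPM. The regions did not overlap on either side. ABCA1 was 3.05-fold higher in the contralateral isthmus (log2 fold change 1.61 ± 0.14 SE, adjusted p = 1.8e-10) and 2.95-fold higher in the ipsilateral isthmus (1.56 ± 0.15, adjusted p = 7.42e-10). It was higher in the isthmus in 14 of 14 contralateral and 12 of 12 ipsilateral pairs of libraries from the same animal.

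ABCG1, its partner in efflux, was 2.97-fold higher in the contralateral isthmus (1.57 ± 0.15, adjusted p = 6.16e-10) and 1.90-fold higher in the ipsilateral isthmus (0.93 ± 0.15, adjusted p = 5.07e-06). Its lowest, median and highest levels were 189, 378 and 666 CPM in the contralateral ampulla, 247, 508 and 1116 CPM in the ipsilateral ampulla, 544, 1200.0 and 1414 CPM in the contralateral isthmus and 778, 1101 and 1727 CPM in the ipsilateral isthmus. The ranges of the regions overlapped on both sides. CAV1 was 2.85-fold higher in the contralateral isthmus (1.51 ± 0.23, adjusted p = 4.05e-06) and 1.89-fold higher in the ipsilateral isthmus (0.92 ± 0.23, adjusted p = 0.00156). Neither gene was called by edgeR in the test of side by region given below, so the folds of the sides are not shown to differ.

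SCARB1, the lipoprotein receptor of the set, was the member called lower in the isthmus, by 0.55 ± 0.15 SE on the log2 scale on the contralateral side (adjusted p = 0.00341) and by 0.55 ± 0.17 SE on the ipsilateral side (adjusted p = 0.00831). Its lowest, median and highest levels were 12.1, 22.3 and 33.5 CPM in the contralateral ampulla against 6.71, 17.2 and 21.4 CPM in the contralateral isthmus, and 15.2, 23.4 and 37.2 against 5.39, 19.2 and 22.5 CPM on the ipsilateral side. These ranges overlapped, yet SCARB1 was higher in the isthmus in 2 of 14 contralateral pairs and 1 of 12 ipsilateral pairs. APOE did not pass the test between regions (-0.81 ± 0.35, adjusted p = 0.0575, on the contralateral side and -0.23 ± 0.29, adjusted p = 0.548, on the ipsilateral side). It was higher in the isthmus in 1 of 14 contralateral and 6 of 12 ipsilateral pairs. With the animal as a block it fell in the contralateral isthmus by 0.66 ± 0.17 SE on the log2 scale (adjusted p = 0.00336; range over 4 alternatives 0.00336 to 0.0609). For NR1H2 the log2 difference between regions was -0.01 ± 0.08 (95% interval -0.17 to 0.16) contralaterally and 0.12 ± 0.07 (95% interval -0.03 to 0.26) ipsilaterally, and for NR1H3 it was 0.08 ± 0.29 (95% interval -0.50 to 0.65) and -0.05 ± 0.24 (95% interval -0.52 to 0.43), none past the threshold. Leaving out the libraries in doubt ended none of the 4 ipsilateral calls.

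**Figure D2:**
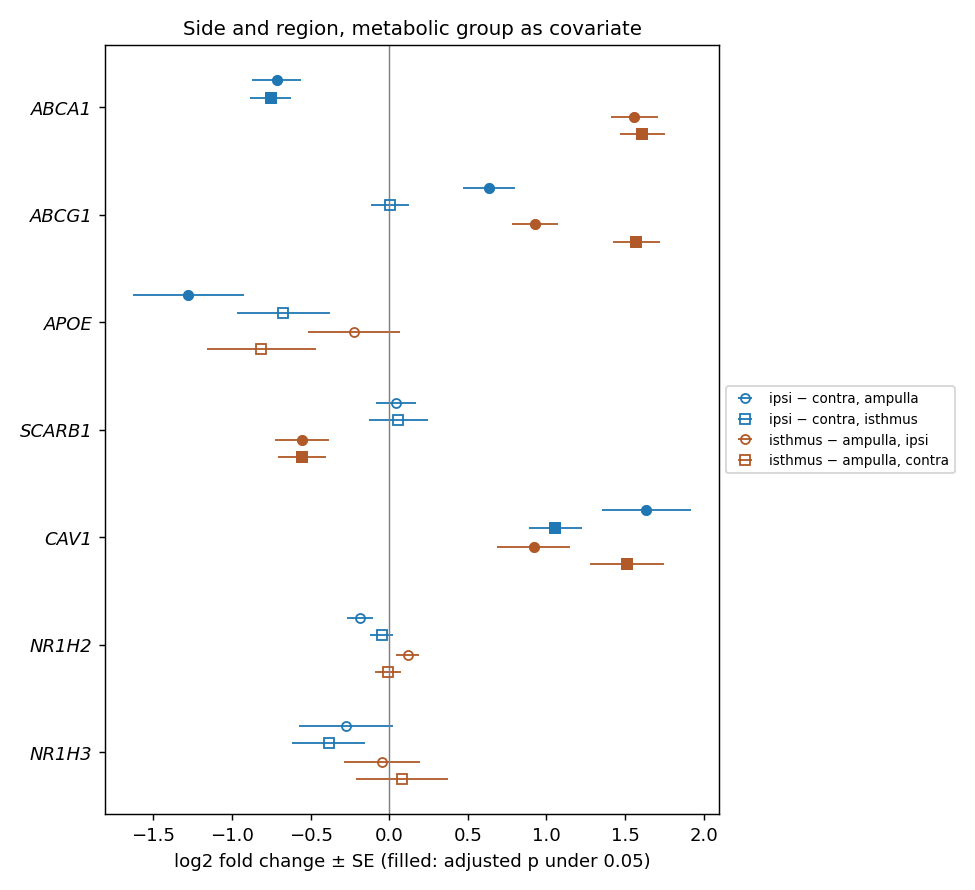
Log2 fold change with SE (horizontal axis) of the 7 genes between sides in each region (28 libraries each) and between regions on each side (28 libraries each), with metabolic group as a covariate and filled symbols for an adjusted p under 0.05. ABCA1 lay at -0.72 and -0.75 between sides and at 1.56 and 1.61 between regions, while ABCG1 differed between sides in the ampulla (0.63) and lay at 0.00 in the isthmus.

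The side relative to the CL was compared in each region over all metabolic groups. In the ampulla ABCG1 and CAV1 rose and ABCA1 and APOE fell on the ipsilateral side, so that 4 of the 7 genes were called where 4.99% of all genes tested were (2.57% higher and 2.42% lower). The members were chosen with earlier results of these data known, so this share and those below do not measure enrichment. For these animals the paper had itself reported ABCA1 and APOE as lower in the ipsilateral ampulla of heifers. In the isthmus CAV1 rose and ABCA1 fell, 2 of 7 genes, where 28.4% of all genes were called (14.9% higher and 13.5% lower), which is a share near the background. The members thus did not move together, and the efflux transporters ABCA1 and ABCG1 had opposite signs in the ampulla.

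In the isthmus of heifers A to E, ABCA1 stood at 238, 235, 238, 222 and 196 CPM on the contralateral side and at 122, 207, 76.2, 161 and 105 CPM on the ipsilateral side. In non-lactating cows A to E it stood at 264, 183, 291, 195 and 235 CPM and at 180.0, 91.2, 81.1, 137 and 185 CPM, and in lactating cows A to D at 293, 217, 176 and 176 CPM and at 132, 160.2, 115 and 140.1 CPM. The ipsilateral library was the lower in 14 of 14 animals, and the sides did not overlap in lactating cows. Over all groups ABCA1 was 1.69-fold lower on the ipsilateral side of the isthmus (-0.75 ± 0.13, adjusted p = 8.98e-05).

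In the ampulla of heifers A to E, ABCA1 stood at 47.8, 101, 93.3, 69.7 and 52.9 CPM contralaterally and at 40.7, 33.2, 38.7, 39.8 and 38.9 CPM ipsilaterally, with no overlap. The ipsilateral libraries of heifers lay within a narrow band, the mean being 38.3 ± 2.95 CPM (SD, n = 5) against 72.8 ± 23.6 CPM contralaterally. In lactating cows the mean was 51.3 ± 11.2 CPM (SD, n = 4) against 85.6 ± 28.2 CPM, and in non-lactating cows 47.6 ± 17.3 CPM (SD, n = 5) against 66.1 ± 25.7 CPM, both with overlapping ranges. The ipsilateral library of heifer B, at 33.2 CPM, is in doubt. The library that resembled heifer B, numbered for non-lactating cow B, stood at 59.4 CPM, within the contralateral range of heifers. Both the narrow band of heifers and their lack of overlap thus depend on the labels. Over all groups ABCA1 was 1.64-fold lower on the ipsilateral side of the ampulla (-0.72 ± 0.16, adjusted p = 0.00704; without the libraries in doubt -0.68 ± 0.17, adjusted p = 0.0327). It was lower ipsilaterally in 11 of 12 pairs, the exception being non-lactating cow B, whose ipsilateral library is in doubt.

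ABCG1 took the other direction in the ampulla. In heifers A to E it stood at 327, 561, 666, 467 and 531 CPM on the contralateral side and at 788, 464, 816, 661 and 939 CPM on the ipsilateral side. In non-lactating cows it stood at 226, 189, 285, 463 and 427 CPM in cows A to E contralaterally and at 479, 1116, 624, 525 and 445 CPM ipsilaterally (cows A, B, D and E and the library with another cow's number). In lactating cows it stood at 378, 377, 201 and 267 CPM in cows A to D contralaterally and at 387, 247, 412 and 492 CPM ipsilaterally (cows A, C and D and the library with another cow's number). The ranges overlapped in each group, most narrowly in non-lactating cows. There the ipsilateral library of cow B, which is in doubt and resembled heifer B, stood far above the others. Over all groups ABCG1 was 1.55-fold higher ipsilaterally (0.63 ± 0.16, adjusted p = 0.021), in 11 of 12 pairs, and without the libraries in doubt the value was 0.55 ± 0.15 (adjusted p = 0.0468), in 10 of 10 pairs. In the isthmus the difference was 0.00 ± 0.12 (95% interval -0.24 to 0.24, adjusted p = 0.987), and ABCG1 was higher ipsilaterally in 6 of 14 pairs.

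CAV1 was the member with the largest side difference of the 7 in both regions. In the ampulla of heifers A to E it stood at 12.9, 18.2, 30.1, 19.4 and 2.002 CPM contralaterally and at 52.05, 26.2, 78.7, 20.6 and 63.1 CPM ipsilaterally. In non-lactating cows the values were 8.61, 14.1, 14.5, 16.6 and 14.6 CPM contralaterally and 61.3, 97.1, 38.9, 27.2 and 17.3 CPM ipsilaterally, and in lactating cows 6.22, 13.7, 9.46 and 15.4 CPM and 17.01, 14.4, 47.1 and 51.8 CPM, in the animal order given for ABCG1. Only in non-lactating cows did the sides not overlap, and the contralateral library of heifer E was the lowest of all 56. Over all groups CAV1 was 3.11-fold higher in the ipsilateral ampulla (1.64 ± 0.28, adjusted p = 0.00127; without the libraries in doubt 1.53 ± 0.28, adjusted p = 0.00401). It was higher in 12 of 12 pairs, and in 10 of 10 without those libraries.

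In the isthmus CAV1 stood at 50.5, 64.4, 76.98, 46.7 and 38.6 CPM contralaterally and 136, 92.2, 100.4, 60.4 and 98.9 CPM ipsilaterally in heifers A to E. In non-lactating cows A to E it stood at 32.2, 24.9, 32.5, 35.2 and 30.4 CPM and 95.5, 89.5, 46.7, 76.3 and 84.5 CPM, and in lactating cows A to D at 18.6, 51.9, 16.05 and 52.4 CPM and 46.4, 99.3, 59.4 and 87.2 CPM. The ipsilateral library was the higher in 14 of 14 animals, with no overlap in non-lactating cows. The difference over all groups was 2.08-fold (1.06 ± 0.17, adjusted p = 3.4e-05).

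CAV1 is also abundant in smooth muscle, endothelium and fibroblasts, and markers of these cells were summed in each library. The 8 smooth muscle genes found of 9 listed summed to a median of 38.01 CPM (11.4 to 67.9) in the contralateral and 72.7 CPM (23.8 to 144) in the ipsilateral ampulla, and to 50.9 CPM (16.3 to 85.4) and 88.97 CPM (39.7 to 133) in the isthmus. This sum was higher ipsilaterally in 12 of 12 ampulla pairs, those with libraries in doubt included, and 14 of 14 isthmus pairs, as CAV1 was. Its most abundant gene by median was MYLK, a myosin light chain kinase (median 20.04 CPM), whereas the contractile genes CNN1, TAGLN and ACTG2 were at 0 in 44, 45 and 35 of the 56 libraries and at most 1.38 CPM. The sum of the 9 endothelial genes found of 10 listed, in which KDR was the most abundant by median (74.3 CPM, at most 340.0), went from a median of 229 CPM (180.4 to 417) to 159 CPM (99.6 to 384) in the ampulla and from 45.9 CPM (17.8 to 124) to 30.99 CPM (13.7 to 58.1) in the isthmus, with CLDN5, PLVAP, ESAM and TIE1 at 0 in 55, 49, 45 and 42 libraries. It was lower ipsilaterally in 11 of 12 ampulla and 10 of 14 isthmus pairs. The 9 fibroblast genes summed to medians of 60.5 CPM (23.7 to 493) and 121 CPM (33.5 to 344) in the contralateral and ipsilateral ampulla, and to 56.3 CPM (21.8 to 416) and 76.03 CPM (47.2 to 278) in the isthmus. COL1A2 was the most abundant of them by median (17.3 CPM), but THY1 reached 459 CPM and LUM 293 CPM in single libraries. PDGFRB, LUM, COL1A1 and DCN were at 0 in 30, 27, 25 and 24 libraries. The fibroblast sum was higher ipsilaterally in 11 of 12 ampulla and 9 of 14 isthmus pairs. Over the 56 libraries, the Spearman correlation of CAV1 was 0.726 with the smooth muscle sum, 0.137 with the fibroblast sum and -0.741 with the endothelial sum. These libraries share animals and span both regions and sides. The correlations thus do not separate differences between regions or sides from differences between libraries of the same condition. The part of smooth muscle cells or fibroblasts in the CAV1 result was not tested.

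APOE fell on the ipsilateral side of the ampulla. In heifers A to E it stood at 36.96, 69.96, 33.1, 38.7 and 119.6 CPM contralaterally and at 22.6, 11.3, 14.8, 18.2 and 20.97 CPM ipsilaterally, with no overlap. In non-lactating cows it stood at 35.1, 17.6, 36.99, 15.3 and 103 CPM and at 12.97, 15.98, 10.01, 56.7 and 9.74 CPM, and in lactating cows at 126, 21.7, 7.91 and 46.1 CPM and at 49.3, 9.17, 24.6 and 15.6 CPM, in the animal order given for ABCG1. Non-lactating cow E and lactating cow A were high on both sides, and the sides overlapped in both cow groups. Over all groups APOE was 2.42-fold lower ipsilaterally (-1.28 ± 0.35, adjusted p = 0.0309), in 11 of 12 pairs. Among the 10 pairs free of a library in doubt, APOE was higher ipsilaterally in 1. Without the libraries in doubt the value was -1.08 ± 0.40 and no longer passed (adjusted p = 0.144), while with the animal as a block and without those libraries it was -1.08 ± 0.18 (adjusted p = 0.00414). Over the 6 alternatives the adjusted p ran from 0.000529 to 0.144.

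In the isthmus APOE was lower ipsilaterally in 11 of 14 animals, and the difference over all groups did not pass (-0.67 ± 0.29, adjusted p = 0.0866). With the animal as a block it did (-0.67 ± 0.14, adjusted p = 0.00101; range over 4 alternatives 0.00101 to 0.106). In heifers A to E the values were 17.3, 38.2, 20.8, 38.1 and 21.4 CPM contralaterally and 16.7, 14.8, 10.5, 14.8 and 9.81 CPM ipsilaterally, which did not overlap. In non-lactating cows A to E they were 28.8, 15.02, 32.8, 20.1 and 34.2 CPM and 17.9, 16.7, 16.01, 20.5 and 16.1 CPM. In lactating cows A to D, 69.9, 16.4, 4.92 and 42.3 CPM stood against 64.3, 8.87, 6.36 and 26.7 CPM, so that in this group the spread between cows exceeded the difference between sides.

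**Figure D3:**
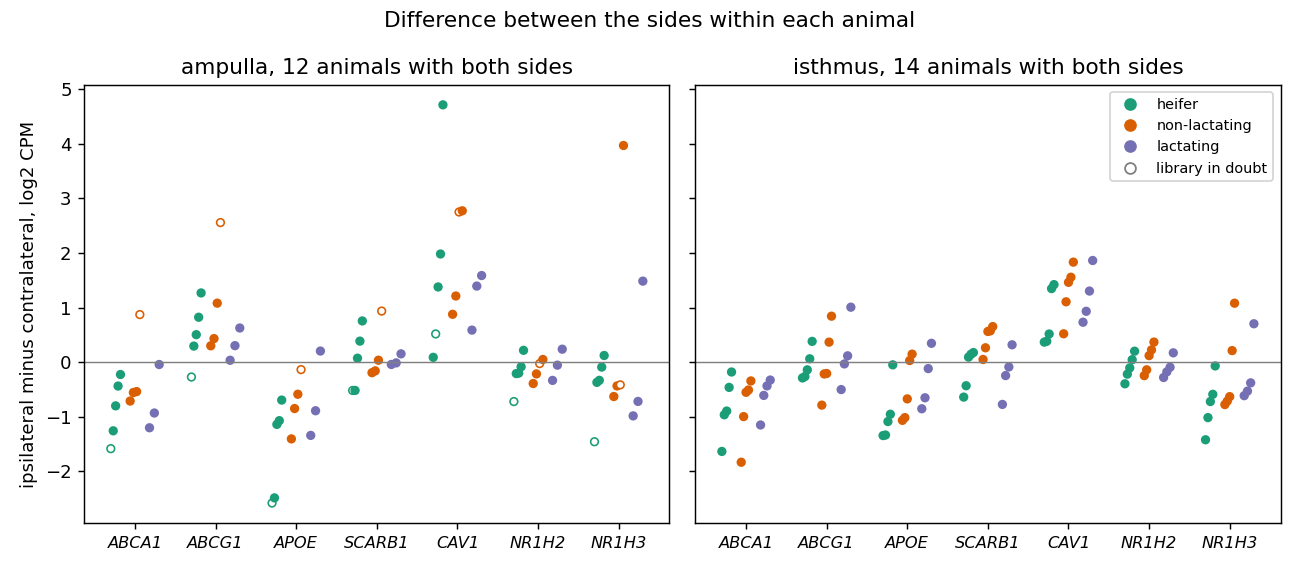
Ipsilateral minus contralateral log2 CPM (vertical axis) of the 7 genes within each animal that had both libraries under its own number, in the ampulla (12 animals) and the isthmus (14 animals), with open points for pairs that rest on a library in doubt. CAV1 lay above 0 in every animal of both regions, ABCA1 below 0 in 14 of 14 animals in the isthmus and 11 of 12 in the ampulla, and ABCG1 above 0 in 11 of 12 in the ampulla.

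APOE is a gene that macrophages express strongly. The 10 macrophage genes summed to a median of 61.4 CPM (26.7 to 410.0) in the contralateral and 57.3 CPM (24.7 to 263) in the ipsilateral ampulla, and to 62.6 CPM (29.03 to 172) and 52.03 CPM (30.6 to 245) in the isthmus. This sum was lower ipsilaterally in 8 of 12 ampulla and 8 of 14 isthmus pairs. TYROBP was at 0 in 21 and CD163 in 10 of the 56 libraries. Lactating cow A held the highest sums of the animals (172 to 410.0 CPM) and APOE levels of 49.3 to 126 CPM in its 4 libraries. Heifer E had both its highest APOE level (119.6 CPM) and its highest macrophage sum (88.9 CPM, median 38.7) in the contralateral ampulla. In heifer B they fell apart, with the highest APOE level (69.96 CPM) in the contralateral ampulla and the highest sum (69.8 CPM) in the contralateral isthmus. Across the 56 libraries, which share animals and span both regions and sides, APOE and the macrophage sum had a Spearman correlation of 0.512. None of the 9 macrophage genes tested in the ampulla and none of the 8 tested in the isthmus was called between sides. The part of macrophages in the APOE result was not tested.

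**Figure D4:**
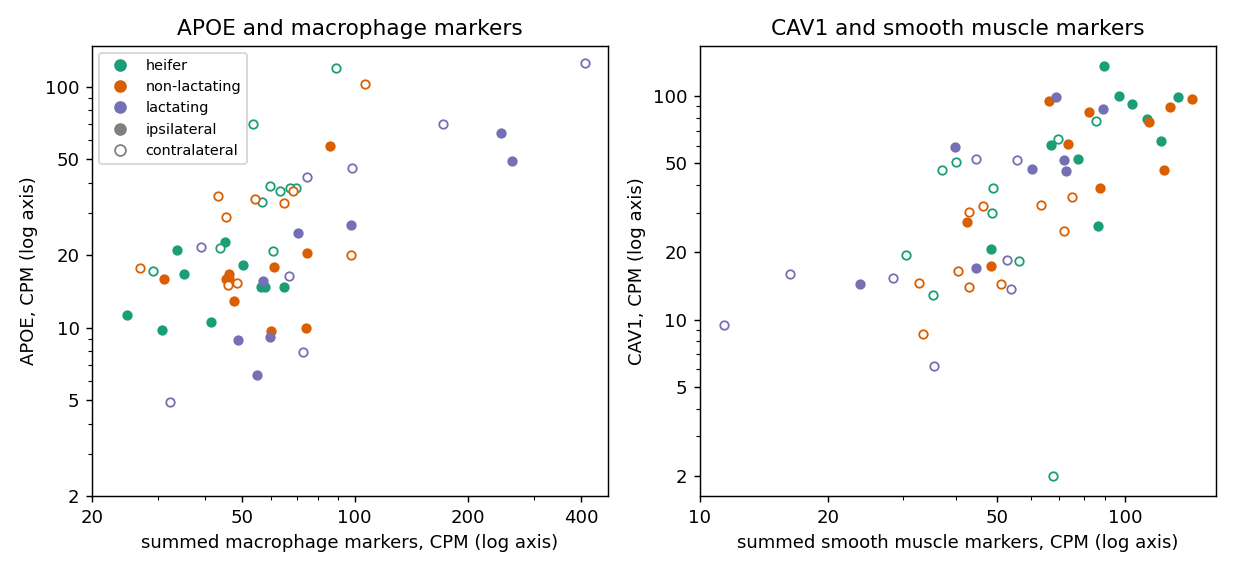
APOE against the summed macrophage markers and CAV1 against the summed smooth muscle markers (CPM, log axes) in the 56 libraries, coloured by metabolic group, with filled points for the ipsilateral side. The APOE points of lactating cow A lie at the right, at macrophage sums of 172 to 410.0 CPM, and the smooth muscle sum was higher ipsilaterally in 12 of 12 ampulla and 14 of 14 isthmus pairs, as CAV1 was.

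The lipoprotein receptor SCARB1 did not differ detectably between sides, with 0.04 ± 0.13 in the ampulla (95% interval -0.20 to 0.29, adjusted p = 0.901) and 0.06 ± 0.19 in the isthmus (95% interval -0.31 to 0.42, adjusted p = 0.859). It was higher ipsilaterally in 6 of 12 and 9 of 14 pairs. Of the liver X receptors, NR1H2 lay at -0.19 ± 0.08 in the ampulla (95% interval -0.35 to -0.02, adjusted p = 0.202) and -0.05 ± 0.07 in the isthmus (95% interval -0.19 to 0.10, adjusted p = 0.678). NR1H3 lay at -0.27 ± 0.30 (adjusted p = 0.685) and -0.38 ± 0.23 (adjusted p = 0.229), with 95% intervals of -0.86 to 0.31 and -0.84 to 0.07, the widest of the 3.

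The sides were then compared within each metabolic group, on 4 or 5 libraries a side that are also part of the comparisons over all groups. In the isthmus of heifers ABCA1 (-0.78 ± 0.21, adjusted p = 0.0378) and APOE (-1.05 ± 0.25, adjusted p = 0.0224) fell and CAV1 rose (0.79 ± 0.22, adjusted p = 0.0406), 3 of 7 genes against 10% of all genes. These calls were narrow: with 1 library left out at a time, ABCA1 kept its call in 2 of 10 refits (adjusted p up to 0.0941), CAV1 in 2 (up to 0.0961) and APOE in 6 (up to 0.0608). A single fit of all isthmus libraries ended the calls of APOE (adjusted p = 0.201; range over 5 alternatives 0.00171 to 0.201) and CAV1 (adjusted p = 0.0735; 0.00756 to 0.0735) and kept that of ABCA1. Non-lactating cows had CAV1 called in the isthmus (1.32 ± 0.18, adjusted p = 0.00255), 1 of 7 genes against 5.11% of all genes, and it kept the call in 10 of 10 refits with 1 library left out. ABCA1 lay at -0.81 ± 0.23 there (adjusted p = 0.0618) and passed with the animal as a block (-0.85 ± 0.20, adjusted p = 0.0254; range over 5 alternatives 0.0131 to 0.061).

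Lactating cows had no gene of the 7 called by edgeR in the isthmus, against 0.187% of all genes. ABCA1 (-0.66 ± 0.18) and CAV1 (1.08 ± 0.40) had an unadjusted p under 0.05, as did 12.2% of all genes. DESeq2 called 1 of 7, ABCA1 (adjusted p = 0.0332; range over 5 alternatives 0.0332 to 0.237), and 2.60% of all genes. With the animal as a block, edgeR called CAV1 (1.19 ± 0.18, adjusted p = 0.0181; range over 5 alternatives 0.0181 to 0.357).

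In the ampulla edgeR called none of the 7 genes in any metabolic group, where it called 0% of all genes in heifers, 0.0947% in non-lactating and 0% in lactating cows. In heifers 4 of 7 genes had an unadjusted p under 0.05, against 9.20% of all genes, namely ABCA1 (-0.92 ± 0.20), ABCG1 (0.53 ± 0.21), APOE (-1.75 ± 0.35) and CAV1 (1.55 ± 0.52). DESeq2 called ABCA1 (adjusted p = 0.0158; range over 7 alternatives 0.0158 to 0.822) and APOE (adjusted p = 0.00291; 0.00291 to 0.822) among 0.683% of all genes. In non-lactating cows ABCG1 (0.996 ± 0.27) and CAV1 (1.81 ± 0.37) had an unadjusted p under 0.05, against 11.1% of all genes. Here CAV1 was called by DESeq2 (adjusted p = 0.000288, 0.976% of all genes), with the animal as a block (adjusted p = 0.00712) and without the libraries in doubt (1.62 ± 0.28, adjusted p = 0.0389), in 5 of 7 alternatives (adjusted p 0.000288 to 0.145). In lactating cows ABCA1 (-0.74 ± 0.25) and CAV1 (1.53 ± 0.45) had an unadjusted p under 0.05, against 4.26% of all genes, and DESeq2 called no member.

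**Figure D5:**
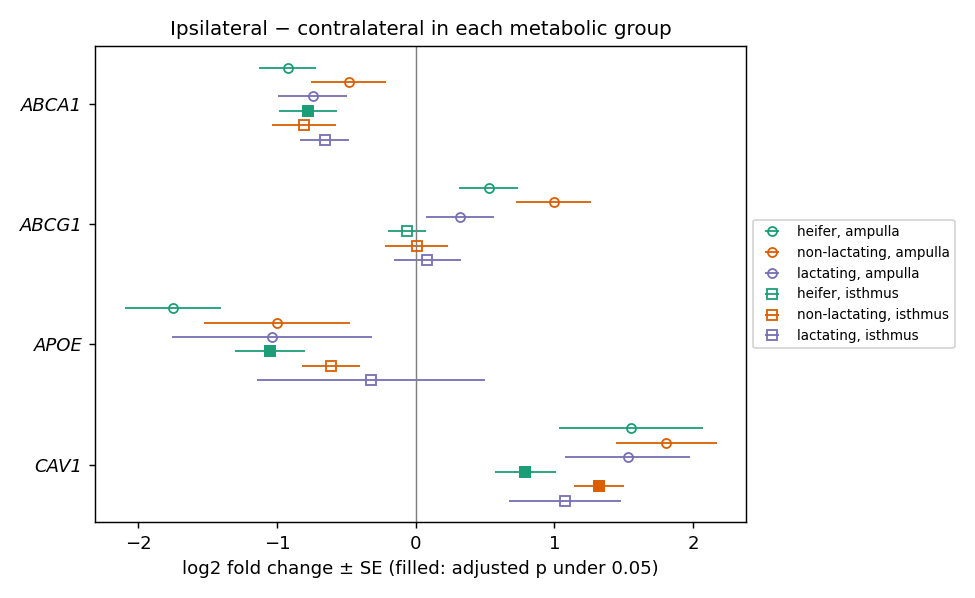
Log2 fold change between the sides with SE (horizontal axis) of ABCA1, ABCG1, APOE and CAV1 in each metabolic group, circles for the ampulla and squares for the isthmus, filled for an adjusted p under 0.05. The 6 values of ABCA1 lie between -0.92 and -0.48 and those of CAV1 between 0.79 and 1.81, while those of ABCG1 in the isthmus lie between -0.06 and 0.08.

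Whether the side effect differed between metabolic groups was tested as an interaction in each region. None of the 7 genes had an unadjusted p under 0.05 in either region, DESeq2 called none, and edgeR called 0% of all genes in the ampulla and 0% in the isthmus, so calls that passed in 1 group and not in another are not shown to differ between groups. Whether it differed between regions was tested over all 56 libraries. ABCG1 was the gene nearest to passing (isthmus minus ampulla -0.63 ± 0.21, adjusted p = 0.0622). No member was called by edgeR, which called 5.89% of all genes, and ABCG1 alone had an unadjusted p under 0.05, as had 20.3% of all genes. ABCG1 passed by DESeq2 (adjusted p = 0.0374, 7.58% of all genes) and with the animal as a block (-0.63 ± 0.21, adjusted p = 0.0496), 2 of 6 alternatives. That block follows the animal numbers, so it set the libraries in doubt beside animals they did not resemble. Without those libraries ABCG1 missed (-0.55 ± 0.20, adjusted p = 0.112; range over 6 alternatives 0.0374 to 0.112), and it missed with the block as well. For ABCA1 this difference was -0.04 ± 0.21 (95% interval -0.45 to 0.37), for CAV1 -0.58 ± 0.34 (95% interval -1.24 to 0.08) and for APOE 0.60 ± 0.48 (95% interval -0.34 to 1.54).

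Metabolic groups were compared on each side and in each region, in 12 comparisons in which pairs share animals. edgeR called none of the 7 genes in any of them. Of all genes it called 0.00730% for non-lactating cows against heifers in the isthmus beside the CL and 0% in each of the other 11. For ABCG1 the mean in the ipsilateral ampulla was 384 ± 102 CPM (SD, n = 4) in lactating cows, 638 ± 276 CPM (SD, n = 5) in non-lactating cows and 734 ± 180.3 CPM (SD, n = 5) in heifers. Lactating cows lay below heifers there by 0.93 ± 0.22 SE on the log2 scale (adjusted p = 0.515), a difference that DESeq2 called (adjusted p = 0.0342; range over 5 alternatives 0.0342 to 0.803; 0.158% of all genes called). Without the libraries in doubt it was -1.20 ± 0.20 (adjusted p = 0.181). In the same place ABCA1 differed between lactating cows and heifers by 0.43 ± 0.16, so that 2 of 7 genes had an unadjusted p under 0.05, against 7.15% of all genes.

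Further values of ABCG1 at an unadjusted p under 0.05 were -0.73 ± 0.27 for lactating against non-lactating cows in the ipsilateral ampulla (3.57% of all genes), -0.72 ± 0.24 and -0.66 ± 0.25 for lactating and non-lactating cows against heifers in the contralateral ampulla (4.73% and 4.35%), and -0.48 ± 0.21 for lactating cows against heifers in the contralateral isthmus (10.7%). All have the sign of a lower level in cows than in heifers or in lactating than in non-lactating cows, and none passed the adjusted test. In the isthmus beside the CL, APOE of non-lactating cows differed from that of heifers by 0.41 ± 0.18 (adjusted p = 0.399; 11.8% of all genes at an unadjusted p under 0.05).

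CAV1 in the contralateral isthmus stood at 31.04 ± 3.86 CPM (SD, n = 5) in non-lactating cows and 55.4 ± 15.2 CPM (SD, n = 5) in heifers, whose ranges did not overlap. The difference was -0.83 ± 0.18 (adjusted p = 0.416), 1 of 7 genes at an unadjusted p under 0.05 against 9.18% of all genes. DESeq2 called it (adjusted p = 0.0302; range over 4 alternatives 0.0302 to 0.5), as it did 0.222% of all genes. In the remaining 5 comparisons no member had an unadjusted p under 0.05 and DESeq2 called none.

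Another 69 genes of the pathway, in 5 lists, were found in the table. Among the other efflux transporters and the partners or targets of liver X receptors, none of 13 tested was called between sides in the ampulla (median log2 fold change 0.02 against -0.01 for all genes). In the isthmus 3 of 11 rose ipsilaterally and 1 fell: LPCAT3, a phospholipid-remodelling enzyme (0.71 ± 0.14, adjusted p = 0.000356), FASN, the fatty acid synthase (0.52 ± 0.09, adjusted p = 4.78e-05) and the transporter ABCA7 (0.50 ± 0.15, adjusted p = 0.0111) rose, and ABCA5 fell (-0.40 ± 0.10, adjusted p = 0.00378), the last named after its value was seen. The list's median was 0.05 against -0.01 for all genes.

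Among genes of lipoprotein uptake, on the ipsilateral side of the isthmus the scaffold protein PDZK1 (0.92 ± 0.33, adjusted p = 0.0344) and the endocytic receptor LRP2 (0.61 ± 0.18, adjusted p = 0.0112) rose, while LRP1 (-0.55 ± 0.14, adjusted p = 0.00286) and CUBN (-0.44 ± 0.12, adjusted p = 0.00526) fell, the latter pair named after their values were seen. PDZK1, which binds SCARB1 and stabilizes it in liver, was also the gene of the list that differed most between regions, at a log2 fold change of 8.86 ± 0.35 toward the isthmus on the ipsilateral side and 8.11 ± 0.51 on the contralateral side, followed by LRP2 at 6.02 ± 0.19 and 5.50 ± 0.24. SCARB1 itself was lower in the isthmus, so the receptor and its scaffold had opposite signs.

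Among apolipoproteins and lipoprotein enzymes 1 of 6 rose ipsilaterally in the ampulla, the lipoprotein lipase LPL (0.44 ± 0.12, adjusted p = 0.0307), and 2 of 7 rose in the isthmus, the endothelial lipase LIPG (1.73 ± 0.47, adjusted p = 0.00598) and LCAT, which esterifies cholesterol in lipoproteins (0.60 ± 0.19, adjusted p = 0.0191). None of the others in the list fell in either region. Among genes of intracellular cholesterol handling 2 of 13 rose in the ampulla, the sterol hydroxylase CYP27A1 (0.57 ± 0.13, adjusted p = 0.0101) and STARD3 (0.43 ± 0.13, adjusted p = 0.0455). In the isthmus 4 of 12 rose, with the lysosomal NPC2 (0.81 ± 0.19, adjusted p = 0.0017), CYP27A1 (0.51 ± 0.09, adjusted p = 7.79e-05) and OSBP (0.27 ± 0.08, adjusted p = 0.0109) first, and none fell. Of the partners of CAV1 in caveolae and lipid rafts none of 9 was called in the ampulla, and 2 of 8 rose in the isthmus, PTRF, which coats caveolae (0.89 ± 0.17, adjusted p = 0.00021), and PACSIN2 (0.35 ± 0.07, adjusted p = 0.00093). The counts of these lists stand beside the background shares for both directions given above.

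Between regions these 4 lists split in both directions, as did the members and all genes tested. Of all genes, 21.5% were higher and 22% lower in the contralateral isthmus, and 24.5% higher and 25.8% lower in the ipsilateral isthmus. In the contralateral isthmus 5 of 12 other efflux and liver X receptor genes were higher and 3 lower, 1 of 6 apolipoproteins and enzymes higher and 5 lower, 6 of 12 intracellular genes higher and 4 lower, and 1 of 8 caveolar genes higher and 3 lower. On the ipsilateral side the counts for these lists were, in the same order, 6 higher and 2 lower of 12, 2 and 4 of 7, 6 and 2 of 13, and 2 and 3 of 8. The retinoid X receptor RXRG, a partner of liver X receptors, was lower in the isthmus (-2.40 ± 0.58, adjusted p = 0.00116, contralaterally), and so was the transporter ABCG4 (-2.28 ± 0.57, adjusted p = 0.00152). INSIG1, a sterol-regulated brake on cholesterol synthesis, was higher (1.64 ± 0.20, adjusted p = 8.21e-08), and EHD2, a protein of the caveolar neck, was lower (-3.34 ± 0.42, adjusted p = 1.19e-07) where CAV1 was higher. LPL was lower as well (-2.34 ± 0.31, adjusted p = 2.63e-07).

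The genes most like each member in log2 CPM (Pearson's r) over the 56 libraries were sought among 9625 genes, as a description only, since libraries share animals, region and side. ABCA1 was followed most closely by ARHGEF28 and CRIM1 (both r = 0.904) and FLRT2 (0.897), ABCG1 by REPS1 (0.911), LDOC1L (0.91) and ABCC1 (0.907), and CAV1 by GNG11 (0.895), GAL3ST2 (0.872) and ACSS3 (0.861). APOE was followed by BRB (0.745), CSF1R, the macrophage growth factor receptor (0.672), and TNIP1 (0.667), and SCARB1 by ATP2C2 (0.724), MASP1 (0.723) and EXT1 (0.722). The liver X receptors had no close companion, the highest r being 0.48 for NR1H2 with CTIF and 0.522 for NR1H3 with ZFP1. Among the members themselves ABCG1 and CAV1 were the most alike (r = 0.708), then ABCA1 and ABCG1 (0.643), while ABCA1 and SCARB1 had the lowest r (-0.495). Neither liver X receptor exceeded an r of 0.348 with any of the genes it is known to switch on.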

How the data were processed

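RNA-seq of oviduct epithelial cells was analysed from the deposited table of raw read counts. The authors made these counts from stranded libraries aligned with TopHat2 (2.0.13) to the Btau_4.6.1 assembly and counted by strand with HTSeq (0.6.1). Of the counted alignments 8.658 to 13.68% fell on genes, and 5 summary lines were left out. No column belonged to another series.

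Groups followed the sample labels. Genes were kept by filterByExpr (minimum count 10) and tested with edgeR (4.0.16, R 4.3.3) after TMM scaling, by its quasi-likelihood F test with Benjamini-Hochberg adjustment over all genes tested and a threshold of 0.05. Every adjusted p is of this kind unless DESeq2 (1.42.0) is named. Comparisons over all metabolic groups carried the group as a covariate, and their libraries come from the same animals. Log2 CPM used a prior count of 2. Scripts were tested on simulated data. Alternatives were DESeq2, its size factors, no filter, the animal as a block, a single fit per region, and leaving out the libraries in doubt or each library in turn.

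Equal numbers were taken to mark the same animal, in the pairs and in the animal block alike. This may not hold for the libraries in doubt, which did not resemble the animal of their number. Over 10616 genes the deviations of the 2 sides of an animal had a median r of 0.341 (-0.0429 to 0.662), above 0.1 in 20 of 26 pairs. The members and gene lists were chosen with earlier results of these data known. All 7 members are named, and of each list up to 3 called genes with the largest change. Replicates are separate animals. One result of the lipoprotein receptor list, and the counts of that list, are not reported here.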

Additional observations from a re-analysis of the deposited data

Results flagged for a closer look

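In 84 groups of 4 or 5 libraries, the highest or lowest library of a member stood apart from the others by Dixon's criterion in 8, where chance gives about 1 in 20. In libraries that are in doubt, ABCA1 of heifer B was the lowest of the ipsilateral ampulla of heifers at 33.18 CPM (nearest 38.71), and ABCG1 of non-lactating cow B was the highest of its group there at 1116 CPM (nearest 624.2). In the isthmus of heifers ABCG1 reached 1727 CPM in heifer D ipsilaterally (nearest 1257) and was lowest in heifer E contralaterally at 1063 CPM (nearest 1313). APOE of non-lactating cow E stood high in the ampulla on both sides, at 56.71 CPM ipsilaterally (nearest 15.98) and 102.7 CPM contralaterally (nearest 36.99). NR1H2 stood at 61.76 CPM in the contralateral isthmus of heifer B (nearest 45.76), and SCARB1 at 33.53 CPM in the contralateral ampulla of heifer E (nearest 23.05).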

How the results depend on the processing

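Values of single genes were followed only where the main fit gave an unadjusted p under 0.05. That choice made a change of sign unlikely from the outset, so the lack of reversals says little. Under alternatives other than leaving out a library there were 223 such values. Of these, 200 stayed on their side of the threshold, 20 passed that had not, 3 no longer passed and none reversed. Of 227 such values with 1 library left out, 203 stayed, 4 passed, 20 no longer passed and none reversed. DESeq2 called 2 members between sides in the ampulla of heifers and 1 in that of non-lactating cows, against 0 by edgeR. In the latter, 2 were called with no filter, and 1 each without the libraries in doubt, with the animal as a block, and with both. Between sides of the isthmus of heifers the single fit per region called 1 member (ABCA1) instead of 3, and in that of non-lactating cows no filter, DESeq2, the block and the single fit each called 2 instead of 1. For the isthmus of lactating cows DESeq2 and the block each called 1 instead of 0. DESeq2 called 1 instead of 0 in the ipsilateral ampulla of lactating cows against heifers, in the contralateral isthmus of non-lactating cows against heifers and for side by region, where the block also called 1. The cause was not tested. With 1 library left out, the count ran from 0 to 1 in the ampulla of non-lactating cows, from 0 to 3 in the isthmus of heifers and from 1 to 2 in that of non-lactating cows, and was 0 in the other comparisons between sides within a group and between metabolic groups. Comparisons over all groups, between regions and of interactions were not refitted in this way. Beside these and the values given with the results, the replicate block changed no other call. Depth limits NR1H3 most, at a median of 23 counts a library.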
